A study of Mus musculus with 14 samples.

Results

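The genes described here are mouse zinc finger genes whose symbol is Zfp followed by a number and that lie on chromosomes 2, 4, 7 or 13. They were chosen by symbol and chromosome alone, without any measured value. There were 145 of them among 23234 gene symbols, with 16 on chromosome 2, 14 on chromosome 4, 84 on chromosome 7 and 31 on chromosome 13, out of 340 such symbols on all chromosomes. Their RNA was measured in 14 libraries of 7 groups with 2 libraries each, in FPKM, a count of fragments scaled by transcript length and library size. In nuclear transfer with somatic cells (SCNT), a body cell's nucleus replaces that of an oocyte. Among SCNT embryos were 2-cell embryos overexpressing Kdm4d (Kdm4d-OE), a demethylase of histone H3 lysine 9, in pools of 25 embryos. A further group of 2-cell SCNT embryos overexpressed a mutant form (Kdm4dmut-OE), also in pools of 25. SCNT 2-cell embryos with neither came in pools of 40 and SCNT 1-cell embryos in pools of 36. Embryos from in vitro fertilisation (IVF) were pooled by 25 at the 2-cell stage and by 32 and 31 at the 1-cell stage. The donor libraries held about 1000 cumulus cells each, the cells that surround the oocyte and here supplied the transferred nuclei. All SCNT groups combined (C57BL/6J x CAST/EiJ) F1 donor cells with B6D2F1 oocytes, whereas IVF embryos came from C57BL/6J oocytes and CAST/EiJ sperm. Differences of SCNT from IVF embryos therefore cannot be told apart from differences of strain. Neither the mutation nor how Kdm4d was overexpressed is stated in the labels. With 2 libraries per group, p-values measure only the spread between these libraries, and an exact permutation test of 2 against 2 cannot go below 0.333. Since whole pools were measured, a lower level cannot separate fewer expressing cells from less RNA per cell.

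Most genes of this name encode proteins with C2H2 zinc fingers, short loops held by a zinc ion that read DNA bases, and many also carry a KRAB domain. A KRAB domain recruits Trim28, which in turn brings the histone H3 lysine 9 methyltransferase Setdb1 and heterochromatin proteins, and many KRAB zinc finger proteins silence retrotransposons in early embryos and germ cells. These genes multiplied by tandem duplication and often lie in arrays of close relatives. The mouse embryo starts transcription of its own genome mainly at the 2-cell stage, when most of the RNA stored in the oocyte is lost.

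The description of the set as clustered held for most of its genes but not for chromosome 4. With starts no more than 500 kb apart and at least 3 genes in a run, 101 of the 145 lay in 14 clusters, with 70 on chromosome 7, 24 on chromosome 13, 7 on chromosome 2 and 0 on chromosome 4. The largest were the 17 genes from Zfp712 to Zfp273 on chromosome 13 (0.788 Mb), the 15 from Zfp84 to Zfp146 (0.401 Mb) and the 14 from Zfp180 to Zfp526 (1.146 Mb), both on chromosome 7. In proteins translated from the annotated coding transcripts, the standard C2H2 pattern occurred with a median of 11 times per protein and 0 to 33 times overall. Letters of the KRAB core were matched in 83 of 143 genes with a coding transcript, namely 70 of the 101 clustered and 13 of the 44 isolated genes. A missing match does not show that a gene lacks the domain. The symbol rule also brought in unrelated fingers: Zfp36 (tristetraprolin), whose CCCH fingers bind RNA, had 0 C2H2 matches. Because relatives share sequence, reads of 50 bases cannot always be assigned. In 67 genes no 50-base stretch of the transcripts occurred in a gene elsewhere, but in 19 over 15% of the stretches did. The share was 83.8% for Zfp600, 66.7% for Zfp534, 45.5% for Zfp808, 40.6% for Zfp934, 32.5% for Zfp442, 30.2% for Zfp345, 22.3% for Zfp931 and 21.1% for Zfp935, so their values are uncertain. Transcripts of Zfp708 and Zfp935 also overlap another annotated gene over their whole length and those of Zfp58 over 50.1%. The sources used here do not say whether counting used strand, and reads of overlapping genes may be mixed.

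Most of these genes were transcribed weakly. A filter of at least 1 FPKM in at least 2 libraries left 117 for testing, and the 28 others had group means of at most 1.27 FPKM (Zfp579). Only 37 of the 145 reached a mean of 10 FPKM in any group, and 26 stayed below 1 FPKM in every group mean. Summed over all 145, the level was 876 and 902 FPKM in Kdm4d-OE and 587 and 599.8 FPKM in Kdm4dmut-OE libraries. It was 615 and 566 FPKM in SCNT 2-cell libraries, against 896 and 827 FPKM in those of IVF 2-cell embryos. At the 1-cell stage it was 694 and 692 FPKM for SCNT, while donor cells had 424 and 412 FPKM and IVF embryos 731 and 728 FPKM. The Kdm4d-OE and IVF 2-cell sums thus lay together at the top and the donor sums at the bottom. Total FPKM over all genes also differed, from 208781 (SCNT 2-cell replicate 2) to 350382 (IVF 1-cell replicate 2). Zfp genes on other chromosomes had a lower mean sum in SCNT than in IVF 2-cell embryos as well (1364 and 1922 FPKM). Their highest mean sums were at the 1-cell stage, with 3753 (SCNT) and 3579 FPKM (IVF). Within the set, breadth ran the other way from the sums, with 92 genes at 1 FPKM or more in donor cells and 69 to 77 in each embryo group. Of the 117 tested, donor cells held the highest mean of 40, 1-cell embryos that of 16 (SCNT) and 19 (IVF), and 2-cell embryos that of 14 (Kdm4d-OE), 7 (Kdm4dmut-OE), 8 (SCNT) and 13 (IVF). The spread between replicates was unequal. Among genes of at least 2 FPKM, the median difference between the 2 libraries of a group was 0.34 (log2) in Kdm4d-OE and 0.281 in Kdm4dmut-OE embryos. It was 0.163 (SCNT) and 0.16 (IVF) at the 2-cell stage, 0.118 (SCNT) and 0.088 (IVF) at the 1-cell stage, and 0.087 in donor cells. The Kdm4d libraries were also the shallowest, with relative depths of 0.508 and 0.415 for Kdm4d-OE and 0.462 and 0.497 for Kdm4dmut-OE against 1 for the deepest library.

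**Figure D1:**
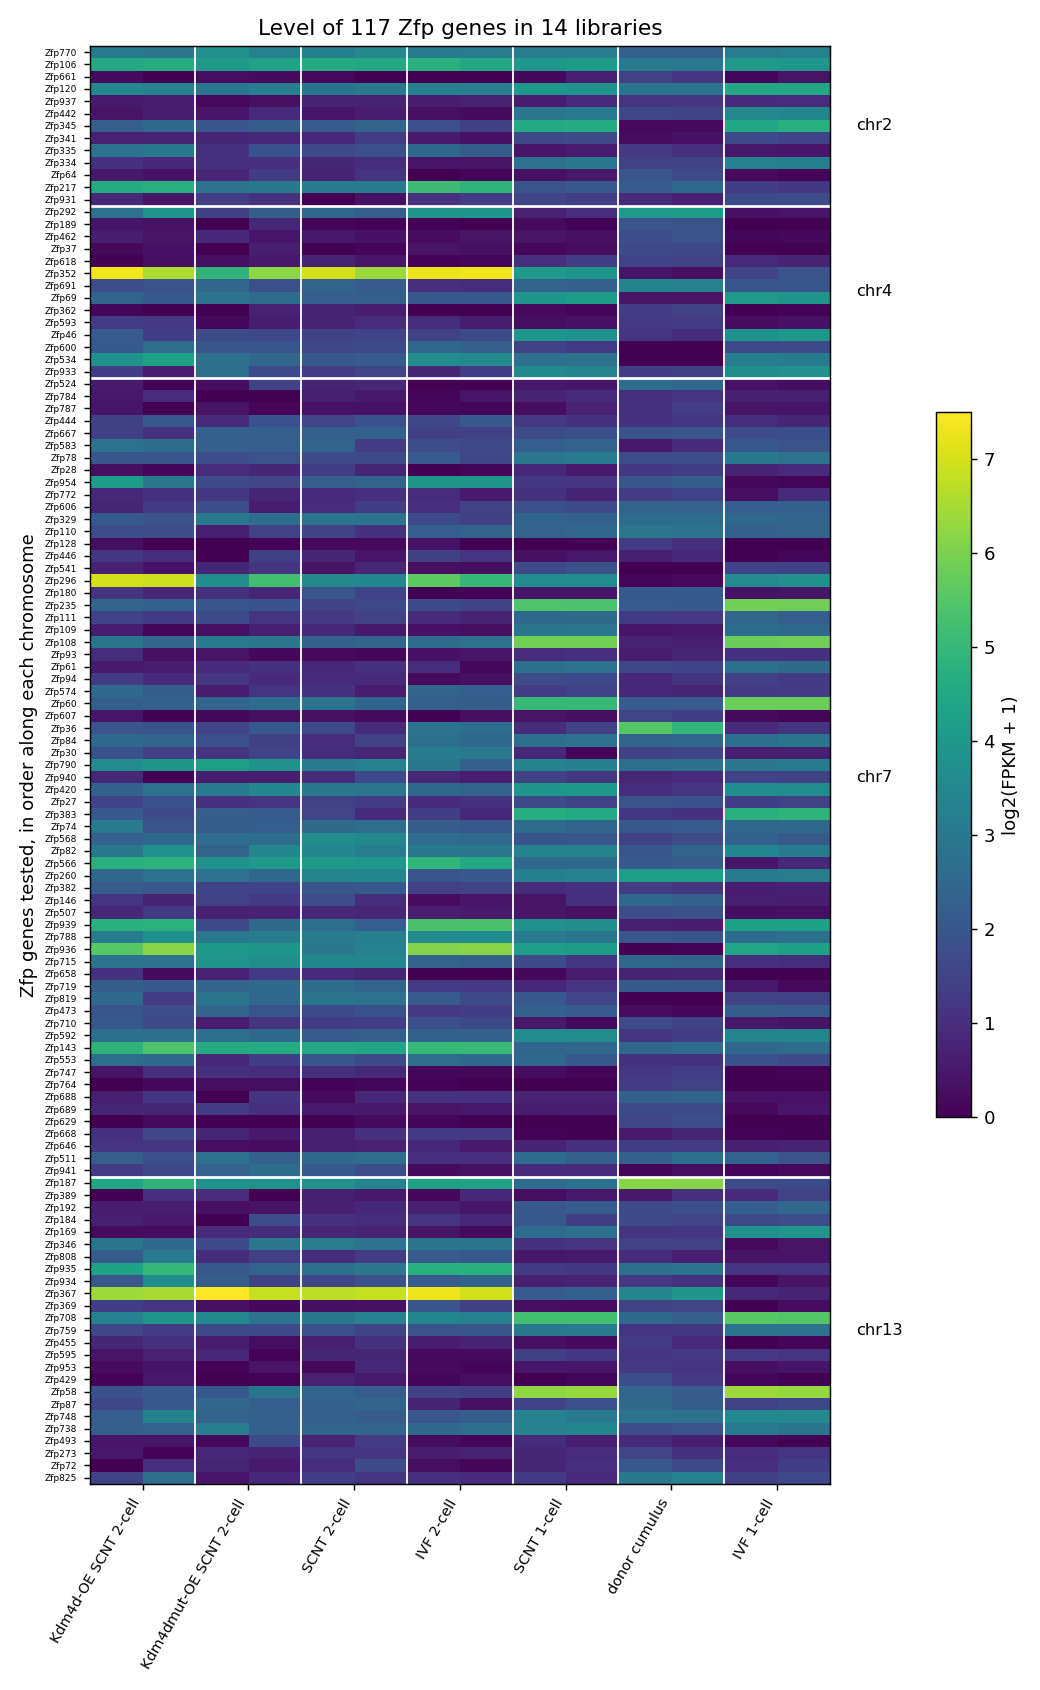
Level of the 117 tested Zfp genes, as log2(FPKM + 1) in colour, in the 14 libraries (columns, 2 per group) with genes in order along chromosomes 2, 4, 7 and 13 (rows). Most rows are dark, and the few bright ones fall at the 1-cell stage (Zfp58, Zfp235, Zfp108), at the 2-cell stage (Zfp352, Zfp367, Zfp143) or in donor cells (Zfp187, Zfp36).

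The labels were checked with Kdm4d and with marker lists. Kdm4d had 8879 and 2255 FPKM in Kdm4d-OE and 723 and 284 FPKM in Kdm4dmut-OE libraries, and below 1 FPKM in every other library, so Kdm4d RNA was lower in the mutant group than in Kdm4d-OE. The summed level of 18 cumulus and granulosa markers was 4709 and 3946 FPKM in donor libraries and at most 186 in any embryo library. The 13 oocyte markers summed to 10.2 and 10.6 in donor and 9480.0 and 9318 in IVF 1-cell libraries.

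Between the 1-cell and the 2-cell stage, the set was turned over in both directions. In IVF embryos, 35 of the 117 tested genes rose (29.9%) and 40 fell (34.2%), in a limma fit to all 14 libraries with an adjusted p under 0.05. Of all 13693 genes tested, 30.2 percent rose and 36.4 percent fell, so the shares are close to the background. The largest rise was that of Zfp367, a C2H2 gene on chromosome 13 (chr13:64234365-64254507, mm9), with 157 and 129.5 FPKM in IVF 2-cell against 0.789 and 0.639 FPKM in IVF 1-cell embryos (log2 difference 6.39, SE 0.23, adjusted p = 8.88e-09). It was near silent in zygotes and among the most abundant of these RNAs a cell cycle later. Zfp352 on chromosome 4 (chr4:89885511-89892378, mm9), known as a transcript of the 2-cell stage, had 156 and 161 FPKM in IVF 2-cell against 1.95 and 2.78 FPKM in IVF 1-cell embryos (log2 difference 5.58, SE 0.39, adjusted p = 5.83e-07). Zfp566, a KRAB gene of the chromosome 7 array from Zfp84 to Zfp146, had 29.9 and 22.02 against 0.383 and 0.824 FPKM at these stages, also without overlap (log2 difference 4.07, adjusted p = 2.95e-08). Zfp143, which binds many promoters including those of small nuclear RNA genes, had 31.8 and 32.5 FPKM in IVF 2-cell against 4.63 and 5.26 FPKM in IVF 1-cell embryos (log2 difference 2.48, SE 0.17, adjusted p = 4.55e-07). Zfp346, a protein that binds double-stranded RNA, had 6.49 and 6.54 against 0.136 and 0.327 FPKM (adjusted p = 4.71e-05), and Zfp335, which is needed for neural progenitors, 4.81 and 3.64 against 0.392 and 0.376 FPKM (adjusted p = 5.15e-05). The RNA-binding Zfp106 rose less, with 26.04 and 22.00 against 15.6 and 14.8 FPKM (log2 difference 0.63, adjusted p = 0.00237).

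The 250 bases before the start of Zfp352 are shown because they hold a tandem array of a homeobox-type motif. The window is that of RefSeq on GRCm38.p6 (chr4:90218570-90218819, plus strand), a later build than the mm9 coordinates of the expression table. Capitals mark TAATCC, the reverse complement of GGATTA, the letters that paired-type homeodomain factors of the Crx and Otx kind bind.
Zfp352: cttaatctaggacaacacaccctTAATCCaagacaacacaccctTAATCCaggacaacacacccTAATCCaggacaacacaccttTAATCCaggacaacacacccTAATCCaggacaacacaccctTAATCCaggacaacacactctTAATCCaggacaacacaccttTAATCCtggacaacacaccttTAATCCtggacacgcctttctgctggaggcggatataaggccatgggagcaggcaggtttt
The motif occurs 9 times, between 227 and 61 bases before the start, in 8 steps of 20 to 21 bases. The motifs searched, on both strands, were GGATTA and CCAAT (bound by the factor NF-Y), and the motif of Dux, in the same 250 bases of 32851 windows. GGATTA was present in 6.25% of all windows and in 6.67% of the 150 windows of the 127 genes of the set that had one. No window of another gene held more than 4 matches. CCAAT was present in 33.8% of all windows and 41.3% of those of the set, and the Dux motif in 0.177% and 0%. These matches describe the sequence and were chosen for search after expression values were seen.

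The genes that fell included the most abundant of the set at the 1-cell stage, several of them in the arrays. Zfp58, a KRAB gene in the chromosome 13 array, had 1.75 and 1.59 FPKM in IVF 2-cell against 82.9 and 78.2 FPKM in IVF 1-cell embryos (log2 difference -4.93, SE 0.24, adjusted p = 4.42e-08), with the overlap with another gene given above. Zfp235, in the chromosome 7 array from Zfp180 to Zfp526, had 2.30 and 1.89 against 58.5 and 57.2 FPKM (log2 difference -4.25, SE 0.13, adjusted p = 5.05e-09). Its array neighbour Zfp108, with a KRAB match, had 5.11 and 6.10 against 55.3 and 57.3 FPKM (adjusted p = 7.11e-08). In none of these did the libraries of the stages overlap. Zfp60 had 3.75 and 3.61 FPKM in IVF 2-cell against 55.3 and 55.6 FPKM in IVF 1-cell embryos, and Zfp383 1.64 and 0.816 against 24.8 and 28.4 FPKM (log2 differences -3.59 and -3.65, adjusted p = 2.8e-08 and 4.53e-07). Zfp708, known to bind a class of retrotransposons, had 9.94 and 8.78 against 46.6 and 43.8 FPKM (adjusted p = 2e-05), with the overlap noted above.

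The array from Zfp180 to Zfp526 held several of them. For the counts that follow, 30.2 percent of all genes rose and 36.4 percent fell. Summed over its 14 genes, the level was 14.9 and 13.6 FPKM in IVF 2-cell and 135 and 134 FPKM in IVF 1-cell embryos, and of 9 tested 7 fell and 1 rose. In the chromosome 13 array from Zfp712 to Zfp273, 6 of 12 tested genes fell and 1 rose. By contrast, all 3 genes of the small chromosome 13 cluster from Zfp808 to Zfp934 rose, from near silence. Genes with a KRAB match summed to 299.9 and 282 FPKM in IVF 2-cell and 533 and 530.0 FPKM in IVF 1-cell embryos, with 16 of 69 rising (23.2%) and 26 falling (37.7%). Genes without a match summed to 557 and 505 FPKM in IVF 2-cell and 179 and 179 FPKM in IVF 1-cell embryos, with 18 of 46 rising (39.1%) and 14 falling (30.4%). The sums of the classes thus moved in opposite directions, and among genes without a match Zfp352 and Zfp367 had the largest rises. The genes without a match did not shift as a class: their median log2 difference was 0.008, with 23 positive and 23 negative. With a match, the median was -0.314, with 27 positive and 42 negative. The difference between the classes was not tested.

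In SCNT embryos, 31 of 117 genes rose between the stages (26.5%, against 35.1 percent of all genes) and 38 fell (32.5%, against 30.9 percent). After quantile normalization, which moved the median of all genes in this comparison to -0.08 against 0.07 on the log2 scale, 18 rose and 50 fell. Over all genes, 4030 rose and 4886 fell under that setting. The log2 differences of the stage comparisons of SCNT and IVF embryos share no library, but the calls of both use the spread pooled over all groups. Of the 40 genes that fell in IVF embryos, 31 fell in SCNT embryos too (77.5%), against 73.0% for all genes that fell. Of the 35 that rose in IVF embryos, 20 rose in SCNT embryos (57.1%), against 75.1% for all genes. Zfp534, Zfp574, Zfp939 and Zfp936 rose in IVF and fell in SCNT embryos, and Zfp329 and Zfp87 fell in IVF and rose in SCNT embryos. The calls of Zfp574 were not followed with a library left out. The rise of Zfp534 in IVF embryos lost its call without any 1 of the 4 libraries (log2 difference 0.41 to 0.53). In SCNT embryos, the rise of Zfp329 lost its call without replicate 2 of the 1-cell embryos or either replicate of the 2-cell embryos (0.45 to 0.52), and that of Zfp87 without replicate 1 of the 1-cell or replicate 2 of the 2-cell embryos (0.54 to 0.62). Over the 117 genes, Pearson's r between the changes was 0.841 and Spearman's rho 0.741, against 0.815 and 0.819 over all 13693 genes. Genes are not independent replicates, and these values describe only the libraries at hand.

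**Figure D2:**
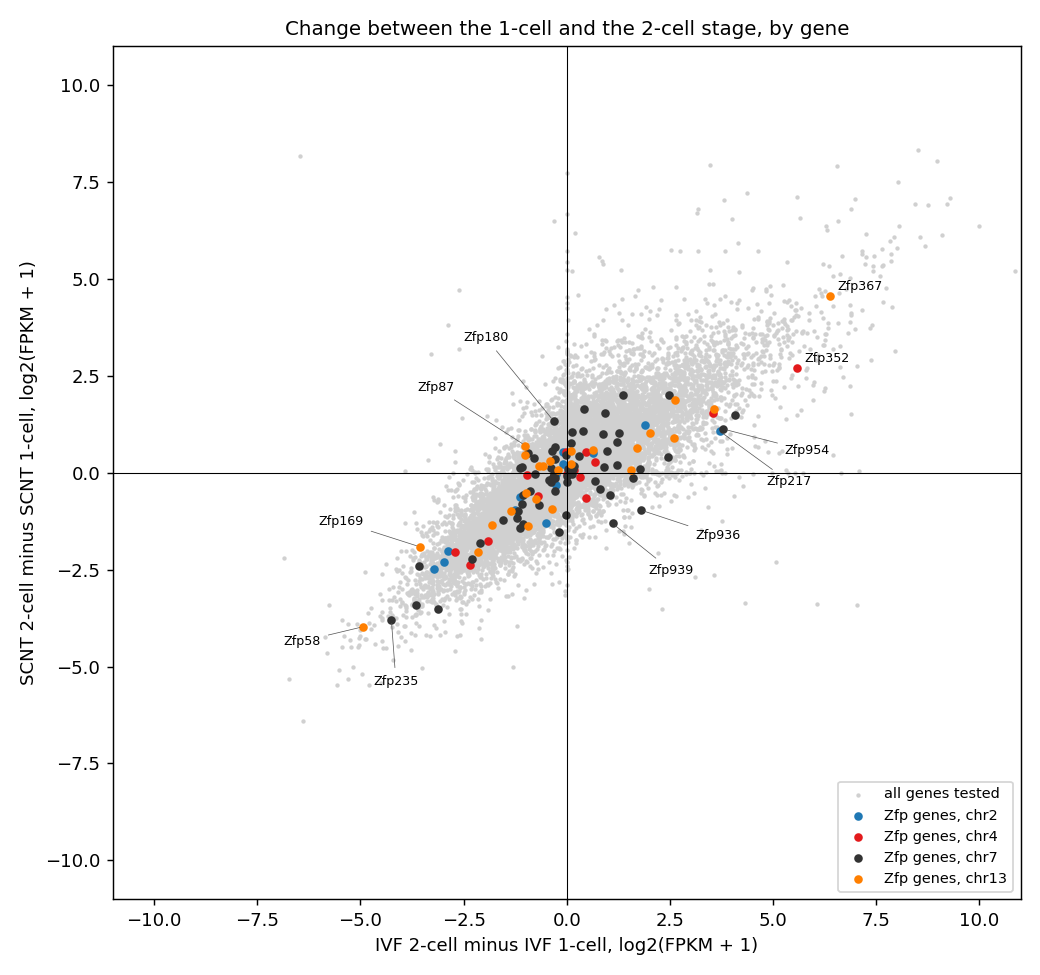
Change from the 1-cell to the 2-cell stage on the log2(FPKM + 1) scale in SCNT embryos (y axis) and IVF embryos (x axis), with 1 point per gene, all 13693 tested genes in grey and the 117 Zfp genes coloured by chromosome. Zfp936 and Zfp939 lie at the lower right, up in IVF and down in SCNT embryos, and Zfp352 and Zfp367 are high on both axes.

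The difference between the stage changes was itself tested. For 19 genes the change in SCNT embryos lay below that in IVF embryos (16.2%, against 12.1 percent of all genes) and for 14 above it (12%, against 15.7 percent). After quantile normalization, these counts were 24 and 9, against 1723 and 1717 over all genes. The difference was strongest for Zfp352 (log2 difference -2.88, SE 0.56, adjusted p = 0.00422), which had 128 and 81.4 FPKM in SCNT 2-cell and 16.02 and 13.8 FPKM in SCNT 1-cell embryos, so it rose less from a higher start. Zfp936 followed (log2 difference -2.77, SE 0.26, adjusted p = 0.000115), then Zfp954 (log2 difference -2.67, SE 0.42, adjusted p = 0.0015) and Zfp217 (log2 difference -2.64, SE 0.24, adjusted p = 9.27e-05). In the other direction, Zfp87, Zfp180, Zfp169 and Zfp329 had log2 differences of 1.70, 1.66, 1.64 and 1.45. Zfp169, with 0.755 and 0.673 FPKM in SCNT 2-cell and 5.14 and 5.80 FPKM in SCNT 1-cell embryos, was already lower than IVF embryos at the 1-cell stage. Zfp180 had 2.97 and 1.86 FPKM in SCNT 2-cell against 0.330 and 0.339 FPKM in SCNT 1-cell embryos, and 0.0371 and 0.0511 against 0.278 and 0.330 FPKM in IVF embryos at the same stages.

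The comparison of SCNT with IVF embryos at the 2-cell stage asks which of these genes differed in RNA level between pools of whole embryos. Such pools can also hold RNA stored in the oocyte, and the strains differ as stated above. Of the 117, 21 were lower in SCNT 2-cell embryos (17.9%, against 16.1 percent of all genes) and 29 higher (24.8%, against 29.3 percent). The shares are near those of all genes, and so are those of the 169 tested Zfp genes on other chromosomes, of which 32 were lower (18.9%) and 39 higher (23.1%). After quantile normalization, 34 were lower and 14 higher, with the median difference of all genes at 0 in place of 0.22 on the log2 scale. Under that setting, 2660 of all 13693 genes were lower and 2719 higher. Of the genes called, 29.2% were higher in the set and 50.55% over all genes, so the set leaned lower there than all genes did. Without replicate 2 of the IVF 2-cell embryos, 16 were higher in place of 29.

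Zfp936 differed most. It is a KRAB gene at chr7:50432958-50447479 (mm9), the start of a cluster of 5 on chromosome 7. It had 7.25 and 8.78 FPKM in SCNT 2-cell against 68.3 and 70.4 FPKM in IVF 2-cell embryos (log2 difference -2.97, SE 0.19, adjusted p = 2.48e-06). SCNT 2-cell embryos were also below their own 1-cell stage, at 17.3 and 15.9 FPKM, and donor cells had 0.0215 and 0.0542 FPKM. Zfp939, isolated on the same chromosome (chr7:46704888-46732786), had 5.59 and 3.71 FPKM in SCNT 2-cell against 39.7 and 39.4 FPKM in IVF 2-cell embryos (log2 difference -2.86, SE 0.26, adjusted p = 2.26e-05). It too was lower than at the SCNT 1-cell stage, with 13.3 and 12.4 FPKM there and 0.561 and 0.512 FPKM in donor cells. Zfp30, a KRAB gene of the chromosome 7 array, had 0.971 and 0.748 against 7.87 and 7.25 FPKM (log2 difference -2.20, SE 0.25, adjusted p = 8.8e-05).

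Zfp217, on chromosome 2 (chr2:169934143-169968175), whose human counterpart is amplified in breast cancers, had 7.28 and 7.65 FPKM in SCNT 2-cell against 34.1 and 28.4 FPKM in IVF 2-cell embryos (log2 difference -1.92, SE 0.17, adjusted p = 1.85e-05). Zfp296 (chr7:20162636-20166005), a gene of pluripotent and germ cells, had 10.6 and 10.3 against 48.3 and 30.6 FPKM (log2 difference -1.79, SE 0.38, adjusted p = 0.00351). Zfp954, a KRAB gene, had 3.84 and 4.21 against 14.6 and 13.95 FPKM (log2 difference -1.61, SE 0.30, adjusted p = 0.00158). None of these 3 overlapped between the groups. Zfp292 on chromosome 4 had 4.76 and 3.79 FPKM in SCNT 2-cell against 13.9 and 14.5 FPKM in IVF 2-cell embryos (adjusted p = 0.00395), and in donor cells 15.5 and 15.9 FPKM. Unlike Zfp936, it was thus abundant in donor cells. Zfp369 and Zfp110, related genes whose products bind the neurotrophin receptor p75, were both lower in SCNT 2-cell embryos, with log2 differences of -1.40 and -1.03 (adjusted p = 0.000216 and 0.00806). The call of Zfp110 was lost without replicate 2 of either group, at -0.81 and -0.93. The uncertain genes Zfp935, with 5.84 and 6.78 against 25.7 and 25.6 FPKM, and Zfp534, with 3.17 and 3.46 against 11.9 and 10.8 FPKM, were lower as well (adjusted p = 6.72e-05 and 9.37e-05).

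The windows before the starts of Zfp936, Zfp939 and Zfp954 are printed because these are genes with large differences in SCNT embryos and their promoters hold the CCAAT letters. They come from RefSeq on GRCm38.p6, at chr7:43177340-43177589, plus strand for Zfp936, chr7:39449261-39449510, plus strand for Zfp939 and chr7:7121477-7121726, minus strand for Zfp954. Each reads toward the gene, and capitals mark CCAAT or its reverse complement ATTGG and, in Zfp954, TAATCC.
Zfp936: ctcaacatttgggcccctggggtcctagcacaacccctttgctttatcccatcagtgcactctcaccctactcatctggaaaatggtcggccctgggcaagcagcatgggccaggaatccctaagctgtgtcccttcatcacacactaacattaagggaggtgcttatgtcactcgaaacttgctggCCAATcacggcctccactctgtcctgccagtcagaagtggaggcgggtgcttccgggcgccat
Zfp939: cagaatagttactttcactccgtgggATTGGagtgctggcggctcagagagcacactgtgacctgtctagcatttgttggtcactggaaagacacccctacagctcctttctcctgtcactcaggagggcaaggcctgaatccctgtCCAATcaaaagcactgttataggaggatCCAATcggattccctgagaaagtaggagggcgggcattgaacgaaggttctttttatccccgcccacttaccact
Zfp954: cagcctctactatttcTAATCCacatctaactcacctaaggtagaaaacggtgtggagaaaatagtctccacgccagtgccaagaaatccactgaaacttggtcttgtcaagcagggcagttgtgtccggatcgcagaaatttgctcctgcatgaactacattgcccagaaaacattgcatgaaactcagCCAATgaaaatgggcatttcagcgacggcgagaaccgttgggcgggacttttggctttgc
CCAAT stands once in Zfp936, 63 bases before the start, and once in Zfp954, 60 bases before it. Zfp939 holds 3 matches, between 224 and 75 bases before the start. These matches say nothing of binding.

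**Figure D3:**
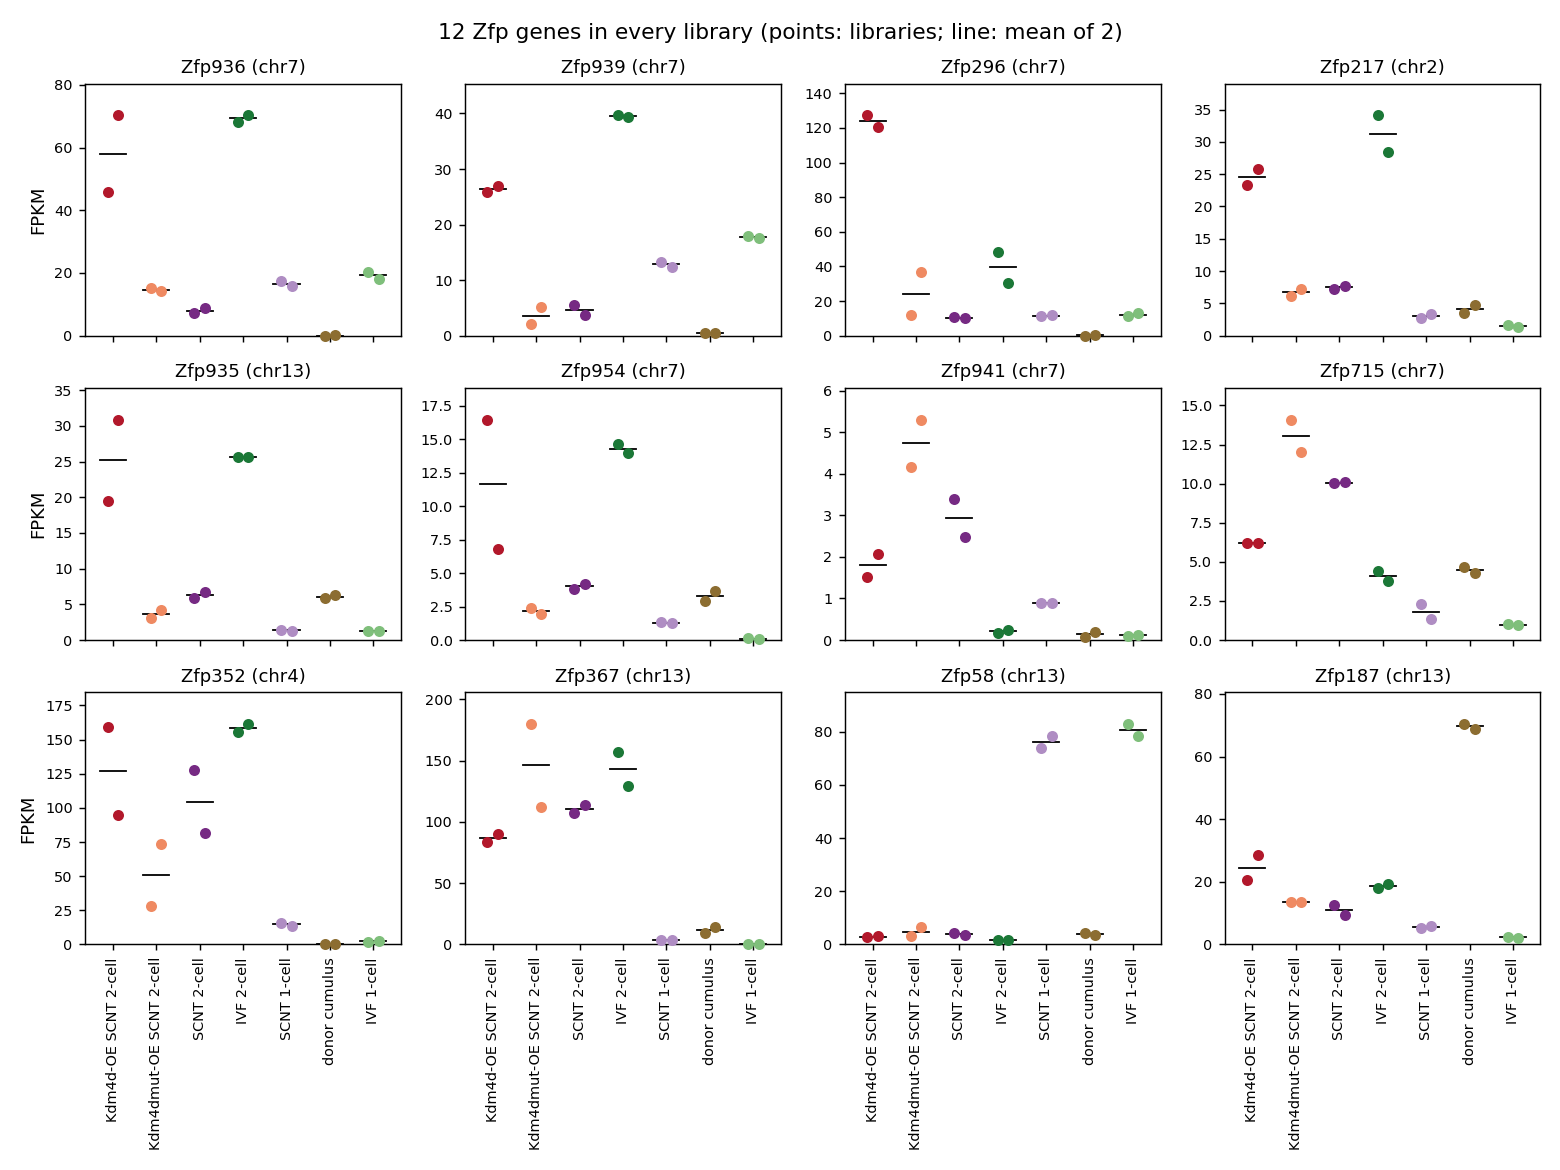
FPKM of 12 Zfp genes (y axes, from 0) in each library, with the groups on the x axis, points for libraries and a line at the mean of 2. Zfp936, Zfp939, Zfp217, Zfp935 and Zfp954 are low in SCNT 2-cell and Kdm4dmut-OE embryos and high in Kdm4d-OE and IVF 2-cell embryos, while Zfp941 and Zfp715 run the other way.

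Among the genes that were higher in SCNT 2-cell embryos, some were also high in donor cells and others were not. Zfp941 on chromosome 7, with a KRAB match, had 3.38 and 2.48 FPKM in SCNT 2-cell against 0.172 and 0.250 FPKM in IVF 2-cell embryos (log2 difference 1.69, SE 0.17, adjusted p = 4.22e-05). Donor cells had 0.0757 and 0.203 FPKM of it, below SCNT embryos at both stages. Zfp87 on chromosome 13 had 3.92 and 4.50 against 0.669 and 0.268 FPKM (log2 difference 1.84, SE 0.23, adjusted p = 0.000169), and 5.09 and 3.60 FPKM in donor cells. Zfp180 had 2.97 and 1.86 FPKM in SCNT 2-cell against 0.0371 and 0.0511 FPKM in IVF 2-cell embryos (adjusted p = 5.72e-05), and 3.28 and 3.38 FPKM in donor cells. Zfp260, described as a regulator in heart muscle, had 9.69 and 9.82 against 2.84 and 3.29 FPKM (adjusted p = 9.19e-05) and 17.4 and 17.6 FPKM in donor cells. Zfp568, a KRAB gene known for silencing the placental Igf2 transcript, had 12.03 and 10.3 FPKM in SCNT 2-cell against 5.40 and 5.07 FPKM in IVF 2-cell embryos (log2 difference 0.96, SE 0.16, adjusted p = 0.000894). It was lower in donor cells, at 1.71 and 2.31 FPKM, below both 2-cell groups. Zfp329, Zfp511 and Zfp667 were higher too, with log2 differences of 1.33, 1.58 and 0.87 (adjusted p = 0.000143, 0.000646 and 0.00128).

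Neighbours within a cluster could differ in direction. In the cluster of 5 from Zfp936 to Zfp819, Zfp936 was lower in SCNT 2-cell embryos and the other genes, Zfp715, Zfp658, Zfp719 and Zfp819, were all higher. Zfp715 had 10.02 and 10.1 FPKM in SCNT 2-cell against 4.39 and 3.81 FPKM in IVF 2-cell embryos (log2 difference 1.12, SE 0.18, adjusted p = 0.000713), and Zfp719 5.34 and 4.29 against 1.45 and 1.36 FPKM (log2 difference 1.27). In the array from Zfp84 to Zfp146, 3 of 14 tested genes were lower, among them the adjoining Zfp84 and Zfp30, and 5 were higher, among them Zfp260 and Zfp568. The cluster from Zfp808 to Zfp934 had the same sign in all 3 genes, of which Zfp808 and Zfp935 were lower and Zfp934 did not pass the test (log2 difference -0.54, adjusted p = 0.329), with the shared sequence noted above. Clusters were not tested as units. Of the clustered genes, 11 of 78 were lower (14.1%) and 20 higher (25.6%), and of the isolated genes 10 of 39 were lower (25.6%) and 9 higher (23.1%). For all counts in this paragraph, 16.1 percent of all genes were lower and 29.3 percent higher. The difference between clustered and isolated genes was not tested.

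**Figure D4:**
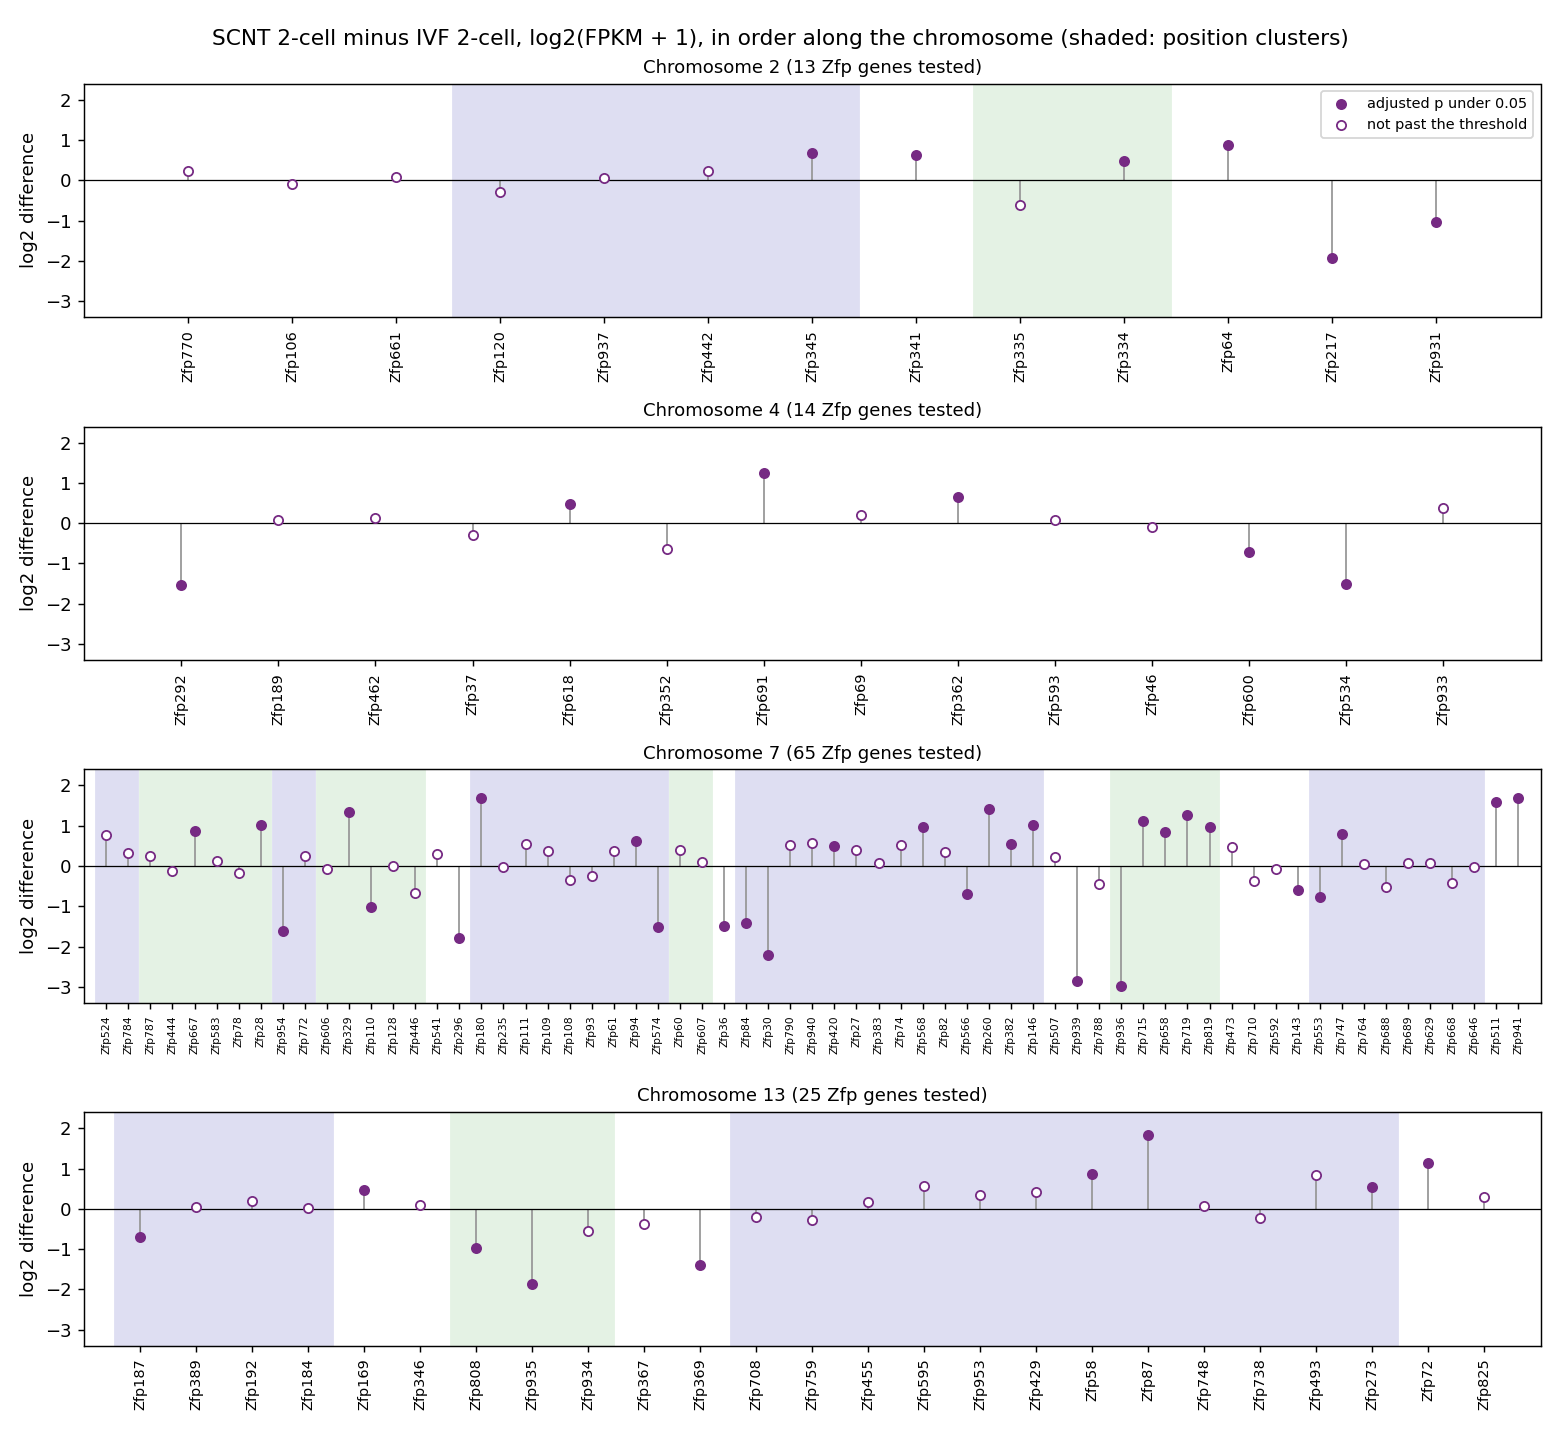
SCNT 2-cell minus IVF 2-cell difference on the log2(FPKM + 1) scale (y axis) for the 117 tested Zfp genes in their order along chromosomes 2, 4, 7 and 13 (x axis), with filled points for an adjusted p under 0.05 and shading for position clusters (colours alternate only to separate neighbours). Zfp936 stands at -2.97 beside 4 cluster neighbours above 0, and chromosome 4 has no cluster.

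Kdm4d-OE embryos differed from Kdm4dmut-OE embryos too, in genes of both directions. Of the 117, 29 were higher in Kdm4d-OE embryos (24.8%, against 20.7 percent of all genes) and 14 lower (12%, against 21.6 percent). Without replicate 2 of Kdm4d-OE, 7 were lower in place of 14. The log2 differences of this comparison and of SCNT against IVF 2-cell embryos share no library. The calls of both use the spread pooled over all groups, so they are not independent of each other. Of the 21 genes lower in SCNT than in IVF 2-cell embryos, 17 were higher in Kdm4d-OE than in Kdm4dmut-OE embryos, which is 81.0% of the 21 and 58.6% of the 29. Over all genes, 1616 of 2201 did so, 73.4% of those lower in SCNT embryos and 57.0% of those higher in Kdm4d-OE embryos, so the share in the Zfp set is near that of all genes. Without replicate 2 of the SCNT 2-cell embryos, Zfp110, Zfp143, Zfp187, Zfp553 and Zfp566 were no longer called lower than in IVF embryos. Without replicate 1 of the IVF 2-cell embryos this held for Zfp143, Zfp553 and Zfp566, and without their replicate 2 for Zfp110 and Zfp143. Between the Kdm4d groups, Zfp110 lost its call without either replicate of Kdm4d-OE or replicate 1 of Kdm4dmut-OE (0.31 to 0.74), and Zfp143 without replicate 2 of Kdm4d-OE or either replicate of Kdm4dmut-OE (0.25 to 0.54). The 17 were Zfp936, Zfp939, Zfp296, Zfp217, Zfp935, Zfp954, Zfp292, Zfp534, Zfp369, Zfp574, Zfp84, Zfp110, Zfp808, Zfp553, Zfp187, Zfp566 and Zfp143. Among them, the calls of Zfp574, Zfp84 and Zfp808 were not followed with a library left out. Zfp931, of uncertain assignment, was lower in both comparisons. Of the 29 genes higher in SCNT than in IVF 2-cell embryos, 8 were lower in Kdm4d-OE than in Kdm4dmut-OE embryos (27.6% of the 29, 57.1% of the 14), namely Zfp941, Zfp329, Zfp715, Zfp667, Zfp28, Zfp64, Zfp420 and Zfp169. Of these, Zfp420 lost its call against IVF embryos without any 1 of the 4 libraries (0.45 to 0.56), and Zfp169 without replicate 1 of SCNT or replicate 2 of IVF 2-cell embryos (0.39 to 0.45). Zfp64 lost its call between the Kdm4d groups without replicate 2 of either (-0.56 to -0.38). The calls of Zfp28 were not followed in this way. Of all 4015 genes higher in SCNT than in IVF 2-cell embryos, 1877 (46.8%) were lower in Kdm4d-OE than in Kdm4dmut-OE embryos. That share was larger than the 27.6% in the set. Zfp382 was higher in both comparisons. The differences of the 117 genes had a Pearson's r of -0.756 and a Spearman's rho of -0.685 between these comparisons, against -0.637 and -0.621 over all genes.

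**Figure D5:**
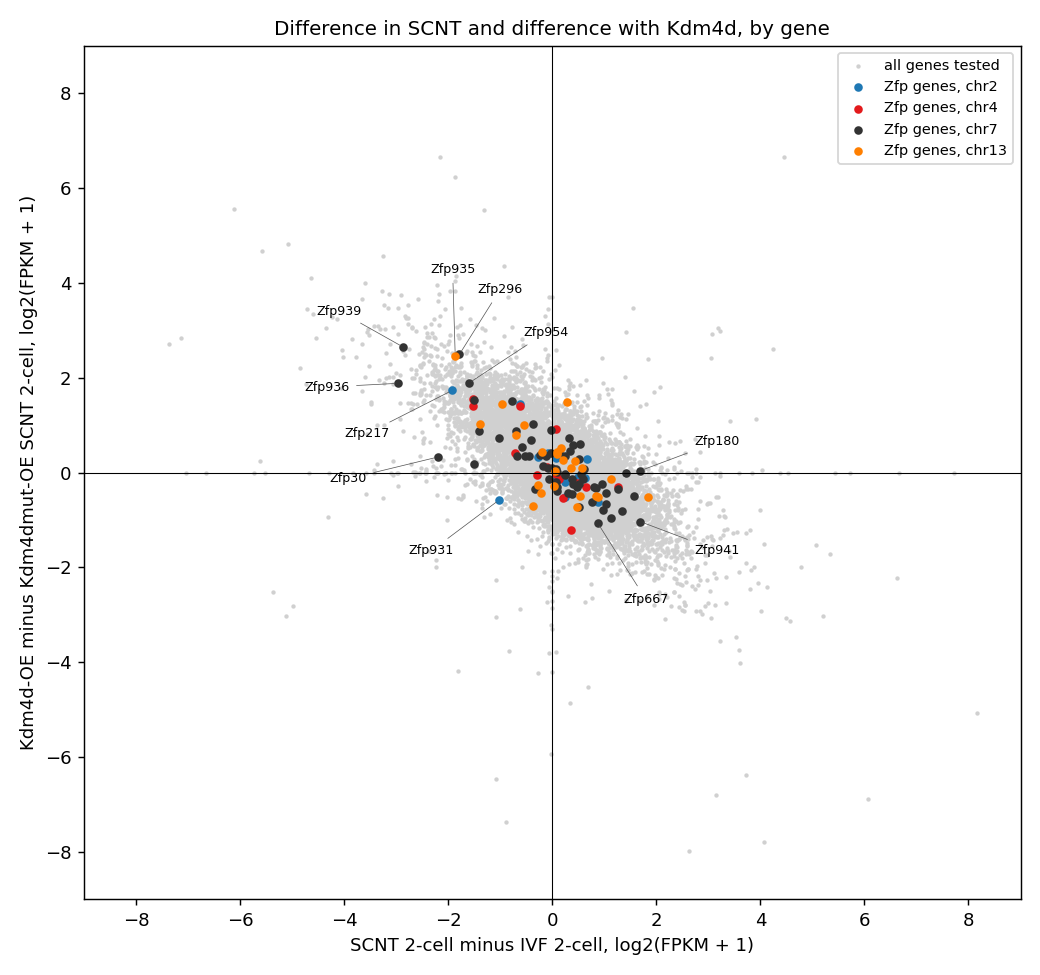
Kdm4d-OE minus Kdm4dmut-OE difference (y axis) against SCNT 2-cell minus IVF 2-cell difference (x axis), both on the log2(FPKM + 1) scale and from separate libraries, with 1 point per gene, all 13693 tested genes in grey and the 117 Zfp genes coloured by chromosome. Zfp936, Zfp939, Zfp296, Zfp935 and Zfp217 lie at the upper left, Zfp941 and Zfp667 at the lower right, and Zfp30 near 0 on the y axis.

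The levels show how close Kdm4d-OE embryos came to IVF embryos, gene by gene. Zfp936 had 45.8 and 70.3 FPKM in Kdm4d-OE and 15.1 and 14.3 FPKM in Kdm4dmut-OE embryos (log2 difference 1.88, SE 0.19, adjusted p = 8.29e-05), so 1 Kdm4d-OE library lay at and 1 below the 68.3 and 70.4 FPKM of IVF 2-cell embryos. Zfp939 had 25.9 and 26.9 FPKM in Kdm4d-OE and 2.15 and 5.08 FPKM in Kdm4dmut-OE embryos (log2 difference 2.65, SE 0.26, adjusted p = 8.59e-05), below IVF 2-cell embryos. Zfp217 had 23.4 and 25.8 against 6.16 and 7.25 FPKM (log2 difference 1.73, SE 0.17, adjusted p = 8.05e-05). Zfp296 went past the IVF level, with 127 and 120.3 FPKM in Kdm4d-OE, 12.1 and 36.6 FPKM in Kdm4dmut-OE and 48.3 and 30.6 FPKM in IVF 2-cell embryos (log2 difference 2.49, SE 0.38, adjusted p = 0.000728 for the Kdm4d groups). Its Kdm4dmut-OE libraries were 1.52 apart on the log2 scale, the widest gap in that group among genes of the set with at least 2 FPKM. Zfp935 had 19.5 and 30.9 against 3.14 and 4.23 FPKM (log2 difference 2.46, SE 0.20, adjusted p = 4.33e-05) and Zfp954 16.5 and 6.79 against 2.37 and 1.96 FPKM (log2 difference 1.89, SE 0.30, adjusted p = 0.000848). Zfp335, which did not pass the test between SCNT and IVF 2-cell embryos (adjusted p = 0.0636), had 5.90 and 7.26 FPKM in Kdm4d-OE against 1.09 and 2.67 FPKM in Kdm4dmut-OE embryos (adjusted p = 0.00134).

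The abundant 2-cell genes differed between the Kdm4d groups in opposite directions. Zfp352 had 159 and 94.6 FPKM in Kdm4d-OE against 28.2 and 73.6 FPKM in Kdm4dmut-OE embryos (log2 difference 1.41, SE 0.39, adjusted p = 0.0162), and Zfp367 83.6 and 90.2 against 179.8 and 112 FPKM (log2 difference -0.71, SE 0.23, adjusted p = 0.0294). Both calls were lost without replicate 1 of either group, and that of Zfp367 also without replicate 2 of Kdm4d-OE. Between SCNT and IVF 2-cell embryos neither gene passed the test (adjusted p = 0.216 and 0.21).

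Not every gene that was low in SCNT embryos followed. Zfp30 had 2.67 and 1.70 FPKM in Kdm4d-OE and 1.19 and 1.87 FPKM in Kdm4dmut-OE embryos (log2 difference 0.33, SE 0.25, adjusted p = 0.318), far below the 7.87 and 7.25 FPKM of IVF 2-cell embryos. Zfp36 had 2.94 and 2.89 against 1.86 and 3.18 FPKM (adjusted p = 0.663), with 6.34 and 5.54 FPKM in IVF 2-cell embryos. In the other direction, Zfp667 had 1.66 and 1.10 FPKM in Kdm4d-OE against 4.04 and 3.85 FPKM in Kdm4dmut-OE embryos (log2 difference -1.07, SE 0.16, adjusted p = 0.000566). Zfp941 had 1.51 and 2.08 against 4.16 and 5.30 FPKM (log2 difference -1.04, SE 0.17, adjusted p = 0.00105) and Zfp715 6.18 and 6.18 against 14.1 and 12.1 FPKM (log2 difference -0.97, SE 0.18, adjusted p = 0.00213). Zfp180 and Zfp260, higher in SCNT than in IVF 2-cell embryos, did not pass the test between the Kdm4d groups, with log2 differences of 0.04 and -0.01 (adjusted p = 0.889 and 0.964).

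Against SCNT 2-cell embryos, 25 genes were higher in Kdm4d-OE embryos (21.4%, against 20.2 percent of all genes) and 12 lower (10.3%, against 18 percent). For Kdm4dmut-OE embryos, 6 were higher (5.1%, against 10.5 percent) and 7 lower (6.0%, against 6.02 percent). Both comparisons use the same SCNT 2-cell libraries. Zfp296 had a log2 difference of 3.45 in Kdm4d-OE embryos (adjusted p = 0.00012) and 0.96 in Kdm4dmut-OE embryos (adjusted p = 0.112). Zfp936 had 2.68 in Kdm4d-OE (adjusted p = 1.15e-05) and, past the threshold too, 0.80 in Kdm4dmut-OE embryos (adjusted p = 0.0182). Zfp568 was lower than in SCNT 2-cell embryos in both, with 4.13 and 4.68 FPKM in Kdm4d-OE and 5.42 and 5.32 FPKM in Kdm4dmut-OE embryos, and so were Zfp180 and Zfp260. These 3 genes were thus lower with the active and with the mutant form. The Kdm4dmut-OE call of Zfp936 was lost without replicate 1 of Kdm4dmut-OE, and that of Zfp260 without replicate 2 of the SCNT 2-cell embryos. Without replicate 1 of the SCNT 2-cell embryos, the Kdm4dmut-OE calls of Zfp936, Zfp568, Zfp180 and Zfp260 were lost, and all kept their sign. Without that replicate, 2 genes were higher and 0 lower in Kdm4dmut-OE embryos by limma, and without replicate 2 of Kdm4dmut-OE 13 and 19.

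The calls between the Kdm4d groups rest on the spread pooled over all 7 groups. In a limma fit to the 4 libraries of these groups alone, 0 of 117 genes passed the adjusted threshold, 30 had an unadjusted p under 0.05 (22 higher, 8 lower in Kdm4d-OE), and 5 of all 13693 genes were called. For Kdm4dmut-OE against SCNT 2-cell embryos, such a fit called 0 genes of the set by limma, with 16 at an unadjusted p under 0.05. It called 21 of all 13693 genes. The Zfp genes differed from IVF 2-cell embryos in both directions, with 21 of 117 lower and 29 higher in SCNT 2-cell embryos. Of 12 markers of the 2-cell embryo, 11 were lower and 0 higher in that comparison. Between the Kdm4d groups, 10 of these markers were higher in Kdm4d-OE embryos and 0 lower. Their summed level was 1970.0 and 3229 FPKM in Kdm4d-OE, 211 and 527 in Kdm4dmut-OE libraries, against 385 and 374 FPKM (SCNT) and 2708 and 2579 FPKM (IVF) without Kdm4d, and Zscan4f was at 0 in both SCNT 2-cell libraries. The part of what these markers follow in the Zfp differences was not tested. The 13 oocyte markers summed to 2874 and 2154 FPKM in Kdm4d-OE and 5135 and 2533 FPKM in Kdm4dmut-OE libraries. Their sums were 1052 and 1201 FPKM in SCNT 2-cell and 1788 and 1821 FPKM in IVF 2-cell libraries. Between the Kdm4d groups, 1 of the 13 was higher in Kdm4d-OE embryos and 1 lower. What oocyte RNA contributes to the Zfp differences was not tested. Cumulus markers summed to 121 and 186 FPKM in Kdm4d-OE and 63.3 and 61.6 FPKM in Kdm4dmut-OE libraries, and their part was not tested either. Gja1 made up most of these sums. It had 94.95 and 158.3 FPKM in Kdm4d-OE, 46.89 and 43.23 FPKM in Kdm4dmut-OE and 63.9 and 53.85 FPKM in IVF 2-cell libraries. Of 17 tested markers, 3 were higher in Kdm4d-OE embryos (Gja1, Tnfaip6 and Amhr2) and 2 lower (Star and Inhbb). Of their log2 differences, 4 were positive and 12 negative.

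At the 1-cell stage, SCNT and IVF embryos differed in few of these genes. By limma, 4 of 117 were higher in SCNT 1-cell embryos (3.4%, against 1.06 percent of all genes) and 2 lower (1.7%, against 0.803 percent). The 4 were Zfp352, Zfp566, Zfp367 and Zfp187. Zfp352 had 16.02 and 13.8 FPKM in SCNT 1-cell against 1.95 and 2.78 FPKM in IVF 1-cell embryos (log2 difference 2.25, SE 0.39, adjusted p = 0.0199), while donor cells had 0.348 and 0.244 FPKM, less than either. Zfp566 had 4.84 and 4.84 FPKM in SCNT 1-cell against 0.383 and 0.824 FPKM in IVF 1-cell embryos (log2 difference 1.88, SE 0.18, adjusted p = 0.00142), and 3.33 and 3.48 FPKM in donor cells. Zfp367 had 3.44 and 4.02 against 0.789 and 0.639 FPKM (log2 difference 1.46, SE 0.23, adjusted p = 0.0108), and Zfp187 5.19 and 5.89 against 2.29 and 2.21 FPKM (log2 difference 1.01, SE 0.17, adjusted p = 0.0189). These last genes were more abundant in donor cells, where Zfp367 had 9.60 and 14.02 and Zfp187 70.4 and 68.9 FPKM. The maternal genes Zfp169 and Zfp60 were lower, with 5.14 and 5.80 against 12.9 and 14.1 FPKM for Zfp169 and 31.8 and 31.7 against 55.3 and 55.6 FPKM for Zfp60 (adjusted p = 0.00339 and 0.0351).

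Most of these 1-cell calls depended on single libraries. Without any 1 of the 4 libraries, 1 gene was called higher, Zfp566, and Zfp352, Zfp367, Zfp187 and Zfp60 lost their call in each case, while their log2 differences kept their sign (2.07 to 2.43 for Zfp352). Zfp169 lost its call without replicate 1 of the SCNT 1-cell embryos (-1.09). A fit to these 4 libraries alone called 11 genes higher and 7 lower. Of all 13693 genes, it called 2295, against 255 in the fit to all 14 libraries. Of 17 tested cumulus markers, Cyp11a1, Tnfaip6 and Gja1 were higher in SCNT 1-cell embryos and 0 were lower, and 13 log2 differences were positive and 4 negative. The 18 listed summed to 17.8 and 17.95 FPKM in SCNT 1-cell and 13.2 and 14.3 FPKM in IVF 1-cell libraries, with Cyp11a1 at 2.45 and 2.87 FPKM in SCNT 1-cell libraries and listed at 0 in both of IVF. Most of the IVF sum was Cyp19a1 and Kitl. Cyp19a1 had 3.85 and 4.66 FPKM in SCNT 1-cell, 7.45 and 8.76 FPKM in IVF 1-cell and 0.388 and 0.275 FPKM in donor libraries. Kitl had 1.535 and 1.497 FPKM in SCNT 1-cell and 2.96 and 2.55 FPKM in IVF 1-cell libraries. Amh was at 0 in both groups and Foxl2, Inhba, Inhbb and Npr2 in both IVF 1-cell libraries. The part of RNA from donor cells in the differences of Zfp187, Zfp367 and Zfp566 was not tested, and Zfp352 was lower in donor cells than in the SCNT embryos.

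Donor cumulus cells differed from 1-cell embryos in most of the tested genes. Of 117 genes, 50 were higher in donor cells, set against IVF 1-cell embryos, (42.7%, against 41.9 percent of all genes) and 42 lower (35.9%, against 34.9 percent), again near the shares of all genes. Zfp187, which also carries a SCAN domain, led with 70.4 and 68.9 FPKM in donor cells against 2.29 and 2.21 FPKM in IVF 1-cell embryos (log2 difference 4.44, SE 0.17, adjusted p = 2.61e-09). Zfp36 had 45.1 and 29.4 against 0.872 and 1.17 FPKM (log2 difference 4.22, SE 0.31, adjusted p = 2.75e-07), with the widest gap between donor libraries among genes of the set with at least 2 FPKM. Zfp292 had 15.5 and 15.9 FPKM in donor cells against 0.281 and 0.338 FPKM in IVF 1-cell embryos (adjusted p = 1.78e-06). Zfp462, a large protein with 33 fingers by the pattern used, had 2.44 and 2.79 against 0.106 and 0.114 FPKM and below 1 FPKM in every embryo library. The genes that were lower in donor cells include the maternal ones, such as Zfp108 with 0.668 and 0.556 against 55.3 and 57.3 FPKM (log2 difference -5.15, SE 0.16, adjusted p = 6.1e-10) and Zfp235 with 3.41 and 3.33 against 58.5 and 57.2 FPKM (adjusted p = 1.17e-09).

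Partners of KRAB zinc finger proteins in silencing were followed in a list of 30 genes, of which 29 were tested. In SCNT 2-cell embryos 8 were lower than in IVF 2-cell embryos (27.6%, against 16.1 percent of all genes) and 5 higher (17.2%, against 29.3 percent), with a median log2 difference of -0.21 against 0.22 over all genes. Setdb1, the methyltransferase that Trim28 recruits, had 2.87 and 3.68 FPKM in SCNT 2-cell against 7.36 and 8.13 FPKM in IVF 2-cell embryos (log2 difference -1.04, SE 0.17, adjusted p = 0.000804). The heterochromatin protein gene Cbx3 had 12.03 and 9.08 against 16.2 and 17.5 FPKM (adjusted p = 0.00765). Hdac1, Mta2, Suv39h1, Hells, Mphosph8 and Pphln1 were lower too, while the DNA methyltransferases Dnmt1 and Dnmt3b and Chd3, Mbd3 and Ehmt2 were higher. Trim28 itself had 21.6 and 21.9 against 36.1 and 28.2 FPKM and did not pass the test (adjusted p = 0.0564). Between the Kdm4d groups, 11 of 29 were higher in Kdm4d-OE embryos (37.9%, against 20.7 percent of all genes) and 2 lower (6.9%, against 21.6 percent), with a median log2 difference of 0.33 against -0.09 over all genes. Trim28 had 40.4 and 43.4 FPKM in Kdm4d-OE against 12.7 and 20.9 FPKM in Kdm4dmut-OE embryos (log2 difference 1.31, SE 0.21, adjusted p = 0.000858), and Setdb1 6.49 and 6.83 against 2.75 and 4.20 FPKM (log2 difference 0.79, SE 0.17, adjusted p = 0.00444). The 2 that were lower were Mta1 and Suv39h2.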

How the data were processed

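RNA from pooled embryos and cumulus cells was amplified with the SMARTer Ultra Low Input kit, made into libraries with NEBNext Ultra and sequenced as single reads of 50 bases, per the labels' protocols. Per the submitters' processing notes, Novoalign (version not given in the sources used here), Cufflinks 2.0.2 and the mm9 build were used. The authors deposited FPKM values, which are normalized for transcript length and library size, so read counts are unknown and depth was estimated only as relative depth from the steps between low values. Donor cumulus cells are labelled (C57BL/6J x CAST/EiJ) F1, while the growth protocol names BDF1 females.

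Rows of 1 symbol were summed (23697 rows, 23234 symbols). limma 3.58.1 in R 4.3.3 was fitted to log2(FPKM + 1) of all 14 libraries with a trended prior, for symbols of at least 1 FPKM in at least 2 libraries, with Benjamini-Hochberg adjustment within each comparison and a threshold of 0.05. Fold changes are on the log2(FPKM + 1) scale, which understates changes of low genes. The fit was tested on simulated data for SCNT against IVF 2-cell embryos only. All groups had the same spread per gene there, so that test cannot speak for calls between groups of unequal spread. Other tools were Python 3.11.15, pandas 2.3.3 and matplotlib 3.10.9. C2H2 fingers and KRAB matches were searched by letter patterns in translated GENCODE transcripts. Promoters are RefSeq windows.

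Named genes were those with the largest called changes of each comparison whose libraries did not overlap, the most abundant of each chromosome, and genes of known role. Zfp28, Zfp84, Zfp574, Zfp658, Zfp719, Zfp808, Zfp819, Zfp931 and Zfp934, outside that rule, were chosen after their values were seen. The members and lists were chosen with earlier results of these data known. Alternatives were a pseudocount of 0.1, no filter, quantile normalization, a fit to the groups compared only, a replicate block, each library left out and, added after seeing the data, short RNA rows left out.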

Additional observations from a re-analysis of the deposited data

Results flagged for a closer look

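Of the 33 genes whose change between the 1-cell and the 2-cell stage differed between SCNT and IVF embryos by the interaction test, the 4 in each direction with the largest differences and at least 2 FPKM in 1 of the groups are given here. It was more downward in SCNT embryos for Zfp352, with a log2 difference of -2.88 (adjusted p = 0.00422), for Zfp936, with -2.77 (adjusted p = 0.000115), for Zfp954, with -2.67 (adjusted p = 0.0015), and for Zfp217, with -2.64 (adjusted p = 9.27e-05). It was more upward in SCNT embryos for Zfp87, with 1.70 (adjusted p = 0.00423), for Zfp180, with 1.66 (adjusted p = 0.00129), for Zfp169, with 1.64 (adjusted p = 0.000399), and for Zfp329, with 1.45 (adjusted p = 0.00167). With 2 libraries per group, no single library could be tested as an outlier.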

How the results depend on the processing

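Of the 252 log2 differences of named genes that were called, 0 changed sign under any alternative run, and those that were not called were not followed. Calls were lost for 56 of the 252 in fits to the groups compared only and for 32 under quantile normalization. The losses were 11 without a filter, 10 with a pseudocount of 0.1, 5 with a replicate block and 0 with short RNA rows left out. Quantile normalization left 14 genes higher and 34 lower in SCNT than in IVF 2-cell embryos, 18 risen between stages in SCNT embryos, 9 with a more upward change in SCNT than in IVF embryos, and 2 higher and 1 lower in SCNT 1-cell embryos. It moved the median of all genes to -0.17 in place of -0.04 for the IVF stage change, 0.04 in place of 0.16 for the difference between stage changes, and 0 in place of 0.13 for donor cells, where 36 genes were higher and 49 lower. Over all genes, it left 74 higher and 64 lower in SCNT 1-cell embryos, and 5188 higher and 5197 lower in donor cells. With a pseudocount of 0.1, 9 genes were higher in SCNT 1-cell embryos, and without a filter 4 were lower in Kdm4dmut-OE than in SCNT 2-cell embryos. A fit to the groups compared only gave 11 higher and 7 lower in SCNT 1-cell embryos, 25 more upward and 30 more downward stage changes, 11 higher and 4 lower in Kdm4d-OE than in SCNT 2-cell embryos, 0 and 0 in Kdm4dmut-OE, and 0 and 0 between the Kdm4d groups. Of all 13693 genes, such fits called 2295, 6254, 2361, 21 and 5 in these comparisons. The fit to all 14 libraries called 255, 3803, 5224, 2255 and 5792. The cause was not tested.

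With 1 library left out, genes called higher and lower numbered 16 to 21 and 16 to 19 in SCNT against IVF 2-cell embryos, 1 and 0 to 1 at the 1-cell stage, 29 to 32 and 36 to 39 for the IVF stage change, and 23 to 27 and 34 to 36 for the SCNT stage change. They were 9 to 13 and 15 to 18 for the difference of stage changes, 18 to 27 and 11 to 14 for Kdm4d-OE and 2 to 13 and 0 to 19 for Kdm4dmut-OE against SCNT 2-cell embryos, 26 to 33 and 7 to 17 between the Kdm4d groups, and 42 to 45 and 39 to 41 for donor cells. Where a group was left with 1 library, it was assumed to vary like the other groups.

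Replicate numbers did not pair the libraries, since 1 of 21 correlations between same-numbered deviations exceeded 0.1 (-0.101 to 0.129). With a replicate block, 1 gene was lower in SCNT 1-cell embryos in place of 2, and 30 were higher in SCNT than in IVF 2-cell embryos in place of 29. The Kdm4d libraries were the shallowest, and what depth does to the calls was not tested.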
